A study of Homo sapiens with 16 samples.

Results

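The comparison set a FOXB1 KO line against a FOXB1 Het line at day 5 of neural crest induction, and it took in 14092 of the 23284 genes of the deposited table. These were the genes with at least 1 FPKM (fragments per kilobase and library depth, a level that is scaled for transcript length) in KO or Het cells and an estimate that had not failed. Both lines came from WA01, a human embryonic stem cell line also called H1, and both were edited by CRISPR/Cas9 with 1 guide RNA aimed at the translational start of FOXB1. Cells were plated at 20000 per cm2 in 3 µM CHIR99021, a GSK3 inhibitor that activates WNT signalling, with the ROCK inhibitor Y-27632 at 10 µM at the beginning. The labels call cells of day 5 neural crest and cells of day 3 pre-neural crest, and all groups shared the same medium and inhibitors. KO and Het had 2 libraries each at each day, among 16 samples of the series. Unedited wild-type cells (WT) of the same stem cell line enter here for reference as the 1 wild-type group that the deposited table has per day. The labels name 2 wild types, isoWT1 and isoWT2, with 4 libraries in all at day 5, so that group may pool both. Each genotype is represented by 1 edited line, so line and genotype cannot be told apart. The study asked how removal of the FOXB1 protein alters gene expression as neural crest forms.

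FOXB1 is a forkhead transcription factor known from the developing brain and neural tube. Neural crest cells arise at the border of the neural plate, where WNT, BMP and FGF signals switch on border genes and then crest specifiers such as SOX10 and FOXD3. Crest cells then leave the neural tube and give rise to peripheral neurons, glia, pigment cells and facial mesenchyme, while cells of the neural plate that keep SOX1 and SOX2 become central neural progenitors.

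The deposited table gives 1 level per gene and group, so the replicate spread is known only through the standard error (SE) that its test scores carry. The SE of a log2 change had a median of 0.70 at 1 to 3 FPKM and of 0.43 at 100 FPKM and above. Depth per library is unknown. Nothing in the labels states that replicates were separate cultures, so the p-values measure the spread between these samples alone, which may be technical.

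FOXB1 (chr15:60296421-60298142 in hg19) stood at 1.86 FPKM in KO cells and 4.47 in Het cells, with 5.51 in WT cells. Its log2 change of KO over Het was -1.26 (SE 0.60), and with q = 0.0924 in the authors' deposited table the difference was not called. At day 3 its level was 15.5 FPKM in KO cells and 7.73 in Het cells, with 18.3 in WT cells, so the 2 lines stood in the other order at that day. Because an edit of the start codon can leave the transcript in place, these levels do not check the genotypes.

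The cells of both lines carried neural crest markers, and 6 of 10 were called higher in KO cells. All 10 crest markers examined had at least 1 FPKM in each line, and their summed level was 265 FPKM in KO cells and 113 in Het cells, with 64.2 in WT cells. TFAP2A, TFAP2B, SOX9, SOX10, FOXD3 and ETS1 rose. PAX3 (43.1 FPKM in KO, 24.6 in Het), PAX7 (4.45 and 2.37), SNAI2 (28.5 and 19.5) and NGFR (19.7 and 14.3) were not called. The 5 markers of central neural progenitors summed to 61.2 FPKM in KO cells and 126 in Het cells. SOX2, not called, led that sum with 58.0 FPKM in KO and 102 in Het. Of the 5, 3 fell (SOX1, SOX3 and HES5), of which SOX3 and HES5 reached 1 FPKM in Het alone. All mesoderm markers (T, TBX6, MIXL1, MESP1, MEOX1) and endoderm markers (SOX17, FOXA2, GATA4, AFP) stayed below 1 FPKM in both lines. Markers of pluripotent cells summed to 29.1 FPKM in KO cells and 24.1 in Het cells. Cuffdiff called 0 of the 4 tested, and 1 of them, TDGF1, had an unadjusted p below 0.05 in the authors' deposited table. Neuron markers summed to 16.4 and 14.8 FPKM in KO and Het cells, with DCX called higher in KO. Markers of surface ectoderm and placode summed to 10.4 FPKM in KO cells and 3.07 in Het cells, with EYA1 called higher, and KRT14 was listed at 0 in both lines. The 5 mesenchyme markers summed to 171 FPKM in KO cells and 378 in Het cells, a sum that TAGLN led. KO cells at day 5 also carried transcripts that stayed below 1 FPKM in both other groups, among them PRAME (55.7 FPKM in KO, 0.104 in Het, 0.751 in WT), cancer-testis genes of chromosome X and posterior HOX genes, all described below. The identity and purity of the KO libraries at day 5 were not tested, so these levels hold for the libraries so labelled. In bulk RNA, fewer cells of a type and less RNA per cell cannot be told apart.

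Calls here are genes to which the authors' deposited table gives a q-value below 0.05, from Cuffdiff. Of 14013 genes tested, 1156 were called, which is 8.25%. In KO cells 797 rose, 5.69% of genes tested, and 359 fell, 2.56%. A gene that reached 1 FPKM in only 1 of both groups could be called in 1 direction alone. Higher genes made up 68.9% of the calls. At least 4-fold changes were seen for 299 genes that rose and 80 that fell, and at least 16-fold changes for 51 and 11. The median log2 change of all expressed genes was 0.06, with quartiles of -0.30 and 0.40. With a normal p read from the deposited test score, the calls dropped to 319 higher and 106 lower.

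WT cells stood nearer to Het than to KO for most called genes. Measured on the log2 scale, the WT level was nearer to Het for 93.5% of the genes that rose and 94.7% of those that fell, against 66.9% of all genes tested. WT lay beyond Het, further from KO, for 38.5% of the genes that rose and for 64.9% of those that fell, against 40.3% and 47.0% of all tested genes that were higher and lower in KO. Among called genes named here, WT was nearer to KO for WNT1, HES1, HEY1, DUSP5, DUSP6, BHLHE40, POU3F2 and RSPO2. This is a description of 3 groups, in which a large KO to Het difference leaves WT less room to be nearer to KO.

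**Figure D1:**
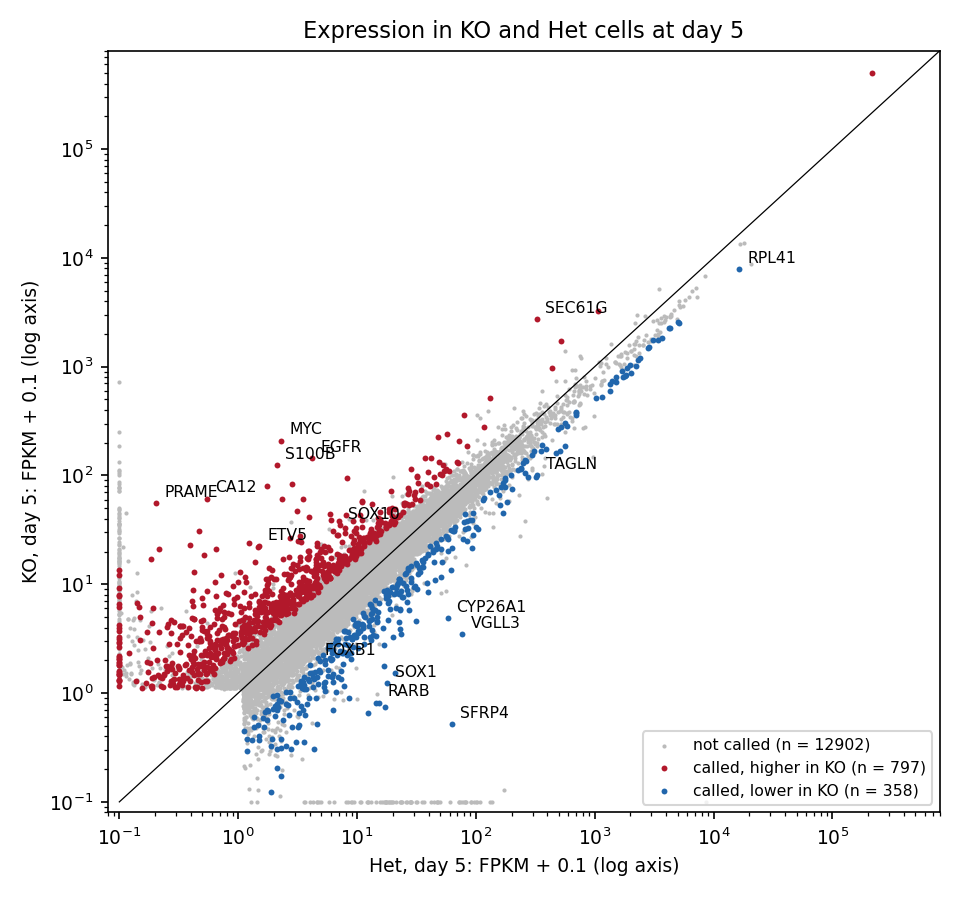
Level of each gene in KO cells (vertical axis) and Het cells (horizontal axis) at day 5, as FPKM + 0.1 on log axes, with 1 point per gene, the line of equal levels, and calls in red (higher in KO) and blue (lower in KO), genes of chromosome Y not drawn. The 797 red points spread further from the line than the blue ones, with PRAME, MYC and EGFR far above it and SFRP4 (0.417 FPKM in KO, 63.1 in Het) far below.

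Neural crest specifier genes rose more often than they fell. Of 20 tested, 7 rose and 3 fell, beside 5.69% and 2.56% of all genes tested. The median log2 change of the list was 0.67 beside 0.06 for all genes (list medians use log2 of FPKM + 0.1). SOX10, which drives the glial and pigment lineages, had 34.6 FPKM in KO cells and 7.07 in Het cells, with 0.388 in WT cells. Its log2 change was 2.29 (SE 0.69), and the 3 groups were ordered KO, Het, WT. SOX9, which acts early in crest and later in cartilage, had 28.0 FPKM in KO and 6.62 in Het, with 3.39 in WT. FOXD3, a forkhead factor of premigratory crest, had 18.6 FPKM in KO and 4.49 in Het, with 0.198 in WT. ETS1, a factor linked to delamination of cranial crest, had 33.5 and 10.9 FPKM in KO and Het cells, and SOX8 had 8.91 and 3.43. TFAP2B stood at 24.9 FPKM in KO and 10.4 in Het. The largest rise of the list was that of MYC, described below. ID2, CRABP1 and NR2F2 fell, CRABP1 to 869 FPKM in KO against 2021 in Het.

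Border genes were divided. Of 16 tested, 4 rose and 2 fell (list median 0.22), beside 5.69% and 2.56% of all genes tested. ZIC1 had 22.3 FPKM in KO cells and 5.16 in Het cells, with 0.605 in WT cells, a log2 change of 2.11 (SE 0.57). TFAP2A, which opens the border programme, had 29.6 FPKM in KO and 12.7 in Het, with 1.98 in WT, and its paralog TFAP2C had 11.9 and 4.28. IRX2 rose as well. HES4 fell to 1.32 FPKM in KO against 6.11 in Het. The homeobox genes MSX1 (16.4 FPKM in KO, 18.4 in Het) and MSX2 (31.2 and 37.5) were not called.

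Among 23 migration and receptor genes tested, 5 rose and 1 fell (list median 0.31), beside 5.69% and 2.56% of all genes tested. RHOJ and EDNRB reached 1 FPKM in KO alone and RET in Het alone, so their directions were set by the minimum. RHOJ, a small GTPase, had 13.0 FPKM in KO cells and 0.329 in Het cells, with 0.486 in WT cells, a log2 change of 5.30 (SE 0.67). The endothelin receptors both rose. EDNRB, the receptor of pigment and enteric crest, had 3.96 FPKM in KO and 0.654 in Het, and EDNRA, the receptor of cranial crest, had 49.5 and 18.5. RET, the GDNF receptor of enteric and autonomic neurons, fell to 0.191 FPKM in KO against 1.10 in Het. CDH2, CXCR4, ITGB1 and NRP2 were among the 17 not called, with NRP2 at 124 and 143 FPKM in KO and Het.

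**Figure D2:**
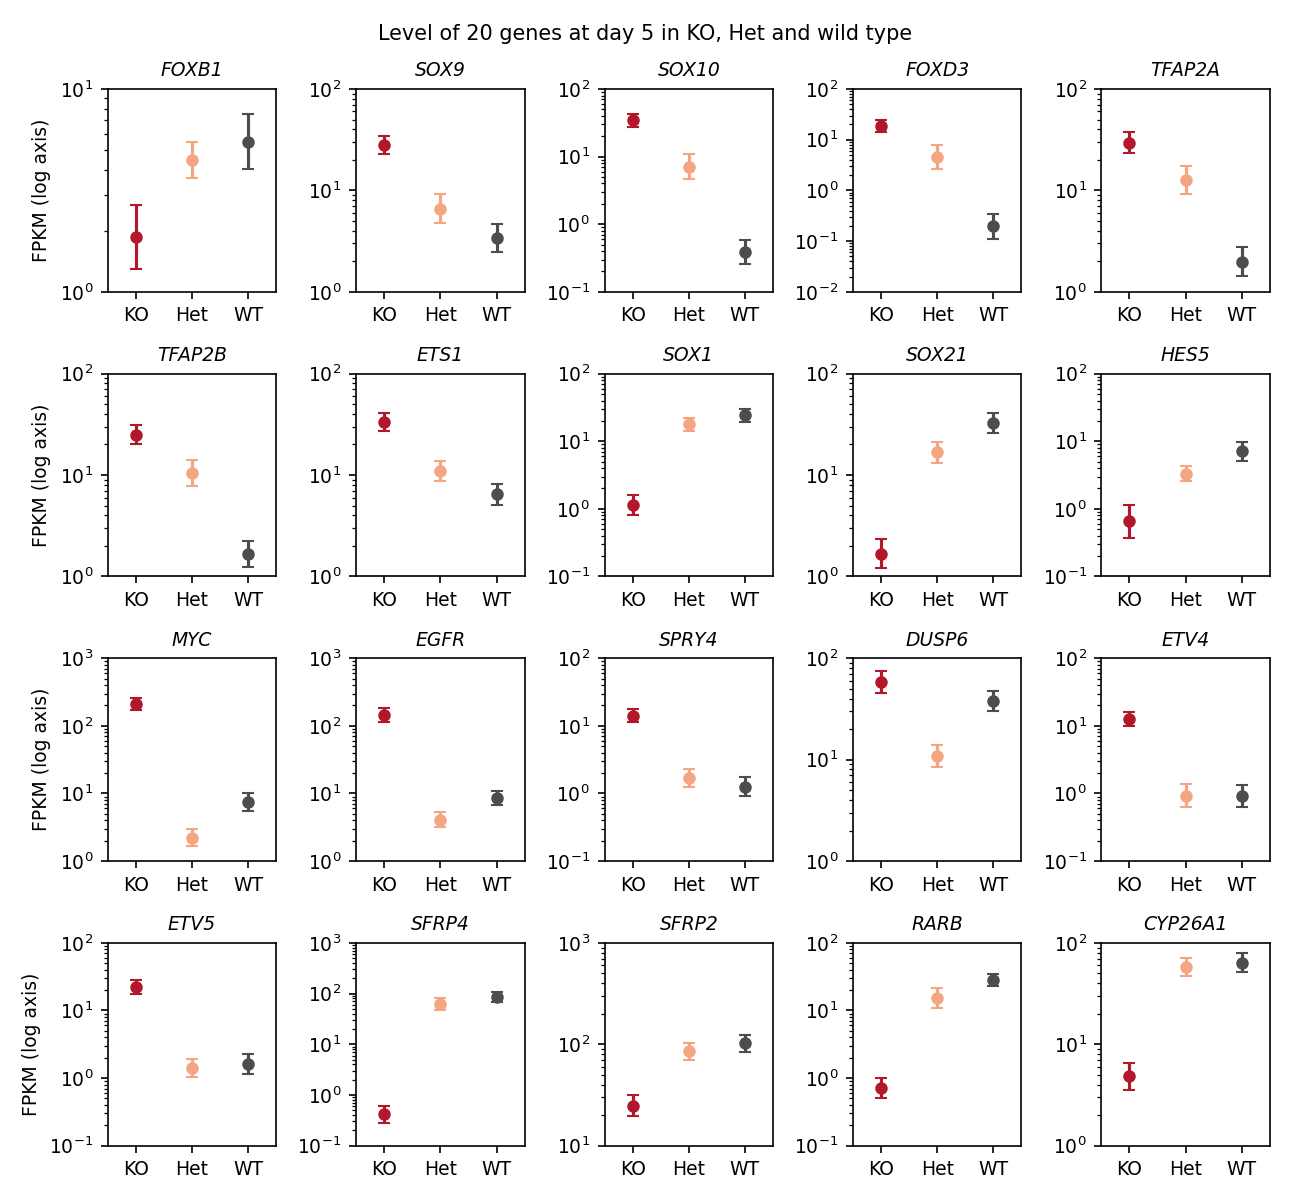
Level of 20 genes at day 5 as FPKM on log axes, 1 panel per gene, with KO, Het and WT from left to right. Points are the authors' group levels and bars are 1 SE on the log2 scale as implied by the deposited test scores. SOX10, FOXD3 and TFAP2A descend from KO through Het to WT, while SOX1, SOX21, RARB and CYP26A1 have KO far below both other groups, and MYC and EGFR have KO far above both.

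Genes of crest derivatives moved in part. Over all genes tested, 5.69% rose and 2.56% fell. In the list of melanocyte and Schwann cell genes, 3 of 6 tested rose and 1 fell. S100B, a calcium-binding protein of glia, had 124.8 FPKM in KO cells and 2.02 in Het cells, with 1.64 in WT cells, a log2 change of 5.95 (SE 0.72). FABP7, a fatty acid carrier of early glia, had 98.2 FPKM in KO and 31.9 in Het. PMEL, a melanosome protein, fell to 44.8 FPKM in KO against 168 in Het. Of 10 sensory and autonomic genes tested, 2 rose, DCX and PRPH, and 1 fell. In the mesenchyme list 4 of 15 rose and 1 fell. ZEB1, which represses epithelial genes, had 17.2 FPKM in KO and 4.89 in Het, PRRX1 had 1.48 and 0.0730, and the smooth muscle gene TAGLN fell to 100 FPKM in KO against 328 in Het. DCN, a matrix proteoglycan, had 12.1 FPKM in KO and was listed at 0 in Het, with 0.283 in WT.

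Central neural progenitor genes fell more often than they rose, 6 against 2 of 11 tested, beside 2.56% and 5.69% of all genes tested. Of these 11, 3 reached 1 FPKM in Het alone and 1 in KO alone. The median log2 change was -0.28 over the 18 members with a level above 0 and -1.74 over the 11 with at least 1 FPKM. SOX1, a neural plate factor, fell to 1.13 FPKM in KO cells against 17.7 in Het cells, with 24.2 in WT cells, a log2 change of -3.97 (SE 0.58). SOX21 fell to 1.68 FPKM in KO against 16.7 in Het, with 32.7 in WT. HES5, a Notch target of neural progenitors, fell to 0.658 FPKM in KO against 3.30 in Het, POU3F1 to 2.99 against 13.1, SOX3 to 0.685 against 2.51 and NES to 101 against 196. SOX2 had 58.0 FPKM in KO and 102 in Het and was not called. POU3F2 and OLIG3 rose, POU3F2 to 21.9 FPKM in KO against 10.3 in Het. Of 11 midbrain and isthmus genes 1 was called, 9.09%, which is near the 8.25% of all genes tested. OTX2 had 24.78 FPKM in KO and 24.98 in Het. WNT1, a midbrain and dorsal neural tube ligand, fell to 26.2 FPKM in KO against 58.5 in Het, with 25.3 in WT, so Het stood apart from both other groups. That call was lost with the SE scaled to the deposited p-values (log2 change -1.16) and with that SE within GC bins (-0.90). It stood with that SE when the change was centred on the median of all genes (-1.21).

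Notch pathway genes changed in both directions, with 2 of 16 higher and 2 lower, beside 5.69% and 2.56% of all genes tested. Of the 16, 5 reached 1 FPKM in Het alone. DLL1 and HES5 were among those 5, and HEY1 reached 1 FPKM in KO alone. The ligand DLL1 fell to 0.948 FPKM in KO cells against 5.25 in Het cells, with 17.6 in WT cells, and HES5 fell as given above. HEY1, a target of the pathway, had 4.74 FPKM in KO and 0.637 in Het, with 2.51 in WT. HES1 had 29.6 FPKM in KO and 9.73 in Het, with 32.4 in WT, level with KO. The receptors NOTCH1, NOTCH2 and NOTCH3 were not called.

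Feedback genes of the FGF and ERK pathway rose in KO cells. Of the 21 tested in a list of FGF ligands, receptors and ERK feedback genes, 10 rose and 2 fell, with a list median of 0.70. The shares over all genes tested were 5.69% higher and 2.56% lower. Of the 10, ETV4 and FGF19 reached 1 FPKM in KO alone. ETV5 and ETV4 are ETS factors that FGF signalling induces. ETV5 had 22.4 FPKM in KO cells and 1.41 in Het cells, with 1.61 in WT cells, a log2 change of 3.99 (SE 0.58). ETV4 had 12.8 FPKM in KO and 0.928 in Het, with 0.911 in WT. SPRY and DUSP proteins restrain receptor signalling and ERK. SPRY4 had 14.05 FPKM in KO and 1.71 in Het, and DUSP4 had 16.05 and 1.28. SPRY1 (16.8 FPKM in KO, 2.26 in Het), SPRY2 (30.5 and 13.0), DUSP5 (11.5 and 3.38), DUSP6 (58.3 and 10.9), IL17RD (7.70 and 3.08) and the ligand FGF19 (1.62 and 0.219) rose as well. DUSP6 had 37.7 FPKM in WT cells, between both edited lines. FGFR3 fell to 4.39 FPKM in KO against 22.4 in Het, and FGF13 to 4.31 against 10.0. FGFR1 (50.7 FPKM in KO, 75.6 in Het), FGFR2 (45.7 and 49.1) and the immediate early gene EGR1 (28.6 and 37.8, with 98.0 in WT) were not called.

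MYC, a transcription factor of growth that also acts in early crest, was among the genes with the largest rise. It had 208 FPKM in KO cells and 2.21 in Het cells, with 7.46 in WT cells, a log2 change of 6.56 (SE 0.51). At chr8:128748315-128753680 (hg19), its neighbours were not called. PVT1, the noncoding gene next to it, had 5.801 FPKM in KO and 5.92 in Het, and POU5F1B had 1.45 and 0.579, both not called. MYCN, its paralog, had 20.8 FPKM in KO and 16.5 in Het and was not called.

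EGFR, the receptor of epidermal growth factor, was named after its values were seen, as a neighbour of SEC61G. It had 145 FPKM in KO cells and 4.09 in Het cells, with 8.54 in WT cells, a log2 change of 5.15 (SE 0.51). SEC61G, a subunit of the protein-conducting channel of the endoplasmic reticulum, had 2751 FPKM in KO and 327 in Het, with 432 in WT, a log2 change of 3.07 (SE 0.47) and the second largest gain in FPKM of any called feature. SEC61G lies at chr7:54819940-54826939 and EGFR at chr7:55086725-55275031 (hg19). The next genes on the far side of EGFR were not called, LANCL2 with 5.44 FPKM in KO and 3.77 in Het and VOPP1 with 18.9 and 25.7. FKBP9L, further along, rose to 8.72 FPKM in KO against 3.74 in Het.

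WNT ligands, receptors and modulators fell more often than they rose, 6 against 1 of 18 tested (list median -0.31). The shares over all genes tested were 2.56% lower and 5.69% higher. Of these 18, 2 reached 1 FPKM in Het alone (SFRP4 and RSPO2) and 2 in KO alone, DKK1 among them. The fall was clearest among secreted WNT-binding proteins of the SFRP family. SFRP4 had 0.417 FPKM in KO cells and 63.1 in Het cells, with 86.0 in WT cells. Its log2 change of -7.24 (SE 0.68), a 151-fold lower level, was the largest fall of any named gene. SFRP2 fell to 24.8 FPKM in KO against 84.9 in Het, and SFRP1 to 27.8 against 56.4. RSPO2, which strengthens WNT signalling, fell to 0.462 FPKM in KO against 2.29 in Het, and the receptor FZD7 to 31.1 against 65.2. DKK1, an inhibitor of WNT coreceptors, rose to 2.79 FPKM in KO against 0.617 in Het. Of 14 WNT feedback targets tested 1 rose (BAMBI), 7.14%, which is near the 8.25% of all genes called in either direction. AXIN2 had 46.3 FPKM in KO and 34.7 in Het, LEF1 20.77 and 15.98, and SP5 12.1 in both lines. All of these cells were in CHIR99021, which acts on the pathway below the receptors.

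Of 5 BMP ligands 1 was called, and of 17 BMP inhibitors and responses 4 were, 23.5%, beside 8.25% of all genes tested. The ligand BMP4 rose to 24.1 FPKM in KO cells against 9.15 in Het cells, with 2.40 in WT cells. Among the inhibitors and responses, BAMBI rose, to 5.61 FPKM in KO against 2.18 in Het, and 3 fell (list median -0.38). With the SE scaled to the deposited p-values BAMBI was no longer called (log2 change 1.36). BMP4 was called with that SE (log2 change 1.395), but not when its change was also centred on the median of all genes (1.34) or taken within GC bins (1.345). SMAD6, an inhibitor inside the cell, fell to 1.48 FPKM in KO against 7.202 in Het, ID2 to 66.0 against 156, and FST, which binds activin, to 18.4 against 39.6. NOG had 3.55 FPKM in KO and 3.24 in Het, and GREM1 6.82 and 4.42, both not called.

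Retinoic acid genes fell in 4 of 12 cases and rose in 1, beside 2.56% and 5.69% of all genes tested. The list median was 0.16. Of the 4, RARB reached 1 FPKM in Het alone. The receptor RARB, itself a target of retinoic acid, fell to 0.716 FPKM in KO cells against 15.3 in Het cells, with 28.3 in WT cells, a log2 change of -4.42 (SE 0.69). CYP26A1, an enzyme that breaks down retinoic acid, fell to 4.81 FPKM in KO against 58.0 in Het, and its neighbour and paralog CYP26C1 to 8.36 against 39.3. CRABP1, a carrier of retinoic acid counted also among crest genes, fell as given above. STRA6, a retinol transporter, rose to 18.3 FPKM in KO against 7.01 in Het, a call lost when its change was centred with the scaled SE (log2 change 1.39 as deposited and 1.33 centred). RARA, RARG, RXRA and CRABP2 were not called, CRABP2 with 939 FPKM in KO and 685 in Het. Without the genes of chromosome 12 and of the long arm of chromosome 1 the sign of the list median changed.

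HOX genes, which set position along the body axis and are low in the most anterior crest, mostly reached 1 FPKM in KO cells alone. Of the 8 tested this held for 7, which could only have been higher, so their count carries no weight, and HOXA2 fell. The median of 3.90 over the 11 of 16 members with a level above 0 was the highest of the 31 lists, and it was 1.26 with a pseudocount of 1 FPKM, since these levels are low. HOXB3 had 6.11 FPKM in KO cells and 0.0469 in Het cells, with 0.0386 in WT cells, a log2 change of 7.02 (SE 1.14). HOXB2 had 8.595 FPKM in KO and 0.447 in Het. HOXB4 (3.90 FPKM in KO) and HOXA4 (1.39) were listed at 0 in Het. HOXA2 had 3.17 FPKM in KO and 9.19 in Het, with 10.4 in WT. Over the HOX genes of every cluster, a set formed after the values were seen, 11 of 39 were tested, and 10 of those 11 reached 1 FPKM in KO alone. Among them were HOXC10 at 1.72 FPKM in KO and HOXA9 and HOXA10 at 2.81 and 1.45, all listed at 0 in Het. HOXA9 and HOXA10 share 1 locus in the table, so reads could be split between them.

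Some genes of other ectodermal and early lineages also rose, where 5.69% of all genes tested were called higher. In the placode and surface ectoderm list 4 of 12 tested rose and 0 fell. The 4 were EYA1 (5.96 FPKM in KO, 1.03 in Het), EYA4 (11.2 and 2.58), EYA2 (3.38 and 1.13) and TFAP2C, while the keratins KRT8, KRT18 and KRT19 were not called. In the list of primitive streak, mesoderm and endoderm genes, TBX1 and FOXC1 rose, and 4 of the 6 tested reached 1 FPKM in KO alone. TBX1, a T-box factor of the pharyngeal arches, had 7.36 FPKM in KO and 0.395 in Het. Of 12 epithelial junction genes CDH1 and EPCAM rose, CDH1 to 1.43 FPKM in KO against 0.193 in Het. CDH1 reached 1 FPKM in KO alone and could only have been higher, and of the 12 tested 6 lay above 0 and 6 below. In the forkhead family 3 of 16 tested rose (FOXC1, FOXD3 and FOXK1) and 0 fell, and FOXC1 reached 1 FPKM in KO alone. Of 15 pluripotency genes 2 were called, 13.3%, with LIN28A at 238 FPKM in KO and 237 in Het and POU5F1 at 8.56 and 4.79.

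Guidance and matrix genes changed in both directions. Of 24 axon guidance genes tested, 5 rose and 2 fell (list median 0.34), 29.2% beside 8.25% of all genes tested. The ephrin receptor EPHB3 had 8.90 FPKM in KO cells and 1.66 in Het cells, and ROBO1 and its ligand SLIT2 rose, ROBO1 to 37.1 FPKM in KO against 15.3 in Het and SLIT2 to 5.25 against 2.09. SEMA5A fell to 1.31 FPKM in KO against 6.83 in Het, and EFNB2 to 20.5 against 43.5. Of 24 collagen and basement membrane genes 4 were called, 16.7%, of which LAMA4 reached 1 FPKM in KO alone. LAMC1, a laminin chain, rose to 95.8 FPKM in KO against 31.6 in Het, LAMA4 rose to 2.02 against 0.331, NID2 fell to 4.57 against 18.1 and COL5A2 fell to 8.07 against 22.2.

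**Figure D3:**
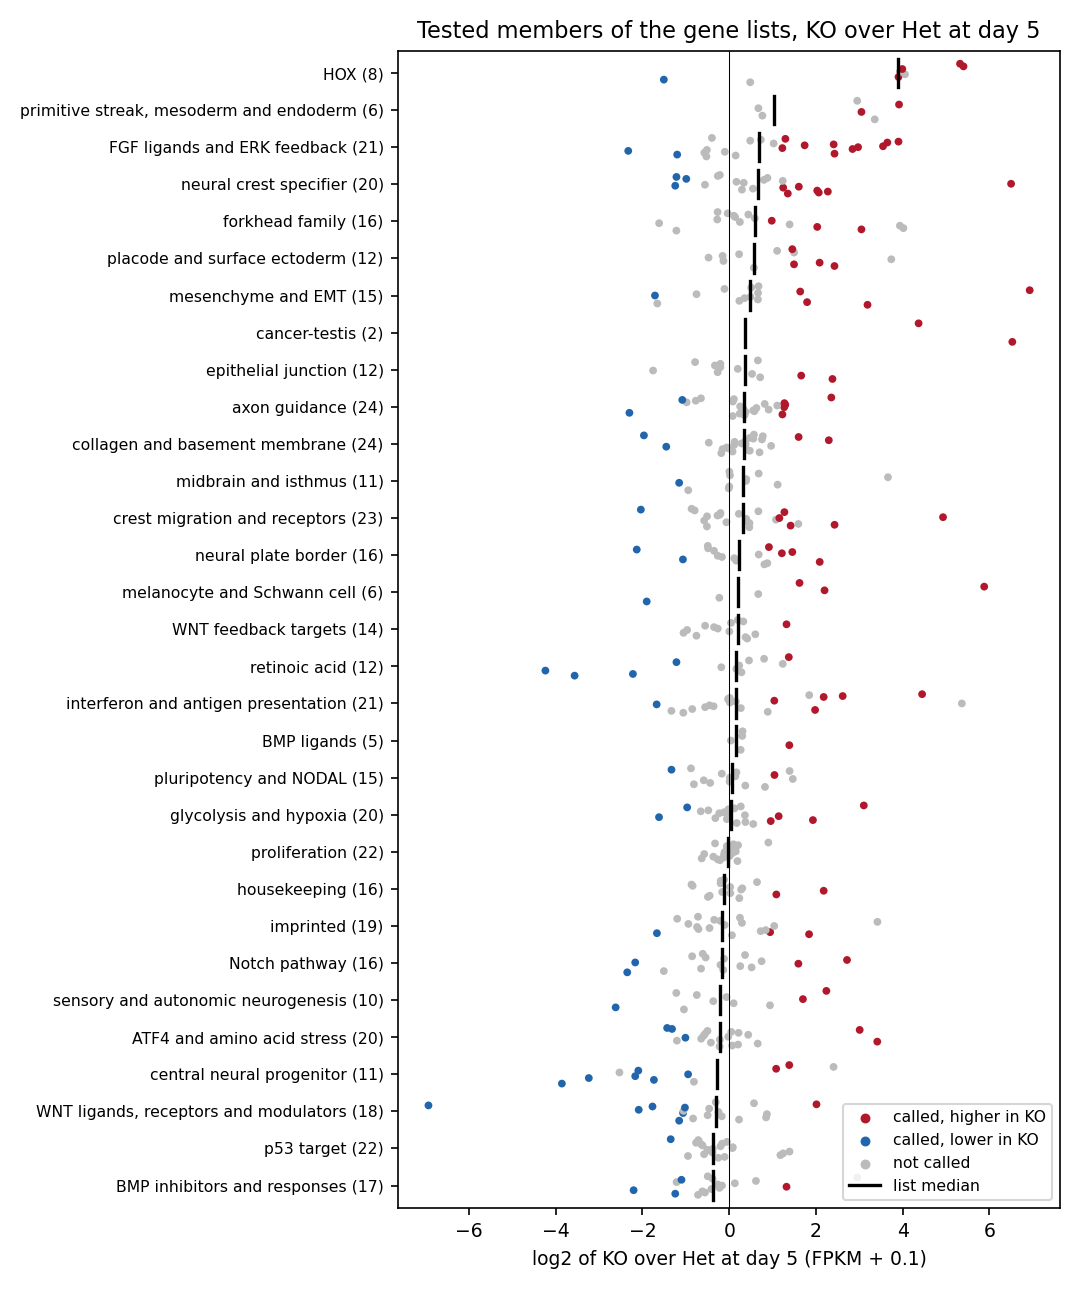
Change of KO over Het at day 5 for tested members of 31 gene lists, as log2 of FPKM + 0.1, with 1 point per gene, red for calls higher in KO, blue for calls lower in KO and grey for genes not called. Black bars are list medians, which also cover members too low to be tested, and the number of members tested follows each list name. The lists run from the highest median (HOX, then primitive streak, then FGF and ERK feedback) to the lowest (BMP inhibitors and responses, with p53 targets and WNT modulators above it).

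Outside the lists, the largest rises were those of genes close to silent in Het and WT cells. A ranking by log2 change with a minimum of 1 FPKM in either group favours genes near 0 in Het. PRAME, a germline and tumour antigen, had 55.7 FPKM in KO cells and 0.104 in Het cells, with 0.751 in WT cells, a log2 change of 9.06 (SE 1.24). SPARCL1, a matrix protein of glia and vessels, had 21.1 FPKM in KO and 0.116 in Het. CA12, a carbonic anhydrase, had 61.2 and 0.447 FPKM in KO and Het, and the bicarbonate carrier SLC4A4 had 4.86 and 0.0485. TM4SF1 (22.9 FPKM in KO, 0.293 in Het), ECSCR (30.5 and 0.368) and the dynein chain DNAH9 (5.91 and 0.0920) followed. NR3C1, the glucocorticoid receptor, had 2.25 FPKM in KO and 0.0197 in Het, but with an SE of 2.51 on its log2 change of 6.84.

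RPH3A and OAS3, both among the largest rises, lie close together on chromosome 12. RPH3A, a synaptic vesicle protein, had 17.0 FPKM in KO cells and 0.0837 in Het cells, with 0.256 in WT cells, at chr12:113229549-113336684 (hg19). OAS3, an antiviral enzyme, had 6.63 FPKM in KO and 0.0417 in Het at chr12:113376249-113411054. OAS1, between them, had 4.74 FPKM in KO and 0.0176 in Het, with an SE of 5.47 on its log2 change, and was not called. PTPN11 on one side had 47.2 FPKM in KO and 34.1 in Het, and DTX1 on the other 0.949 and 1.55, both not called. The interferon and antigen presentation list holds OAS1 but not OAS3. Of its 21 tested members 5 rose and 1 fell, beside 5.69% and 2.56% of all genes tested. Of the 21, 6 reached 1 FPKM in KO alone, TAP1 and PSMB9 among them. B2M rose to 363 FPKM in KO against 80.1 in Het, while ISG15 fell to 4.54 against 14.7 (log2 change -1.69, and -1.44 and no longer called within GC bins with the scaled SE). TAP1 and PSMB9 rose, on a haplotype contig whose reads may be shared with the main assembly.

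Of the genes that rose, 32 were listed at 0 in Het cells, and no fold is given for them. Of the genes that fell, 0 were listed at 0 in KO cells. Among all genes tested, 89 were listed at 0 in Het and 55 in KO. The highest of the 32 was OLIG1, a factor of oligodendrocyte and ventral neural progenitors, with 13.6 FPKM in KO cells and 0.0755 in WT cells. DCN followed. Cancer-testis genes on chromosome X, normally silent outside the germline, were among the 32. MAGEA12 had 9.12 FPKM in KO and its neighbour CSAG1 had 7.82, SAGE1 had 3.64 and CT45A5 had 2.83. In the cancer-testis list 2 of the 21 genes in the table were tested (MAGEA12 and MAGEB2), and of the CT45 and MAGE families, formed after the values were seen, 8 of 28. All of these reached 1 FPKM in KO alone, so their direction was set by the minimum. CT45 copies are near-identical and their reads can be split. At day 3 MAGEA12 had 0.512 FPKM in KO cells and was listed at 0 in Het cells.

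The largest falls, besides SFRP4, SOX1 and RARB, were in genes of several kinds. VGLL3, a cofactor of TEAD factors, fell to 3.40 FPKM in KO cells against 76.9 in Het cells, with 170 in WT cells. The protease inhibitor PI15 fell to 0.650 FPKM in KO against 17.0 in Het, and NTRK2, the receptor of BDNF, to 0.712 against 14.3, with 34.7 in WT. The cardiac troponin TNNI3 fell to 0.554 FPKM in KO against 12.2 in Het, the arginine methyltransferase PRMT8 to 1.43 against 20.8, SYT10 to 0.0723 against 2.18, CXCL11 to 0.207 against 4.28 and LINC00052 to 0.106 against 2.02. FLG, a skin barrier protein, stood at 0.0220 FPKM in KO and 1.80 in Het. FLG overlaps an antisense gene, FLG-AS1, and the counting is not stated to use strand, so reads of the 2 cannot be told apart.

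Forkhead proteins bind a core that is often written TGTTTAC. RefSeq promoters (GRCh38.p14, 250 bases before the first listed start) were matched by symbol for 21 of the 25 genes made up of FOXB1, the 12 largest rises and the 12 largest falls. Searched on both strands, the core stood in 2 of these 21, both among the falls, and in 2.98% of all 27305 promoters in that table. Those promoters include genes that were not tested here, so they are no matched background, and enrichment of the core was not tested. The 2 are printed because they are the strongly lowered genes whose promoter holds the core, shown in capitals (for FLG it reads GTAAACA, the other strand). A match is no evidence of binding. NTRK2 is from chr9:84669056-84669305 on the plus strand and FLG from chr1:152325240-152325489 on the minus strand. Shares over all called genes, for this core and for the E-box and the ETS core that were also counted, are void, because 9422 of the 14013 genes tested matched the table, fewer than 80%.
NTRK2: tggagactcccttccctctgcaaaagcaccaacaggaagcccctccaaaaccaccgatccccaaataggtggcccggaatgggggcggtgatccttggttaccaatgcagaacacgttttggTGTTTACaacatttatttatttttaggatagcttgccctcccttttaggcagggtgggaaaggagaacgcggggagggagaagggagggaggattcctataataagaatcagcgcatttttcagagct
FLG: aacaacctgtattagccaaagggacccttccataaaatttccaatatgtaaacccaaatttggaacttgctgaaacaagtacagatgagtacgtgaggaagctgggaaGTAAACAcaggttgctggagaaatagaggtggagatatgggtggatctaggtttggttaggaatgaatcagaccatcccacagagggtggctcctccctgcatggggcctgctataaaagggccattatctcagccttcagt

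Among abundant transcripts, cytosolic ribosomal protein genes leaned lower in KO cells. These were a set formed by name after the values were seen. Of 77 tested, 22 fell and 0 rose, beside 2.56% and 5.69% of all genes tested. Of the 77, 76 had a log2 change below 0, and the median was -0.72. RPL41 had 7900 FPKM in KO cells and 16438 in Het cells, RPS25 2507 and 5144, and RPL7A 2554 and 4987. RPL21P28, which the table lists under a pseudogene name, had 2259 and 4219, and reads of ribosomal protein pseudogenes can be shared with their parents. Histone genes leaned the same way, with 7 of 59 tested lower, 0 higher and a median of -1.95. Most histone mRNAs lack a poly-A tail, and these libraries were made from poly-A RNA. MTRNR2L genes, near-identical nuclear copies of mitochondrial ribosomal RNA sequence, rose in 6 of 7 cases, with MTRNR2L2 at 3277 FPKM in KO and 1067 in Het. MIR4461, whose short annotated feature makes its FPKM very large, also rose. HSPA8, a chaperone, had 964 FPKM in KO and 438 in Het. EEF1A1 carries the table's status for too many reads and is listed at 0 in KO, so it has no test.

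Of 22 proliferation genes tested, Cuffdiff called 0 (list median -0.02), and 1, CCNB2, had an unadjusted p below 0.05 in the authors' deposited table, with the cycling marker MKI67 at 29.2 FPKM in KO cells and 25.6 in Het cells and PCNA at 181 and 179. Of 16 housekeeping genes B2M and HPRT1 rose and 0 fell, and HPRT1 (log2 change 1.09) lost its call within GC bins with the scaled SE (0.98). Of 22 p53 targets 1 fell, DDB2, to 31.8 FPKM in KO against 81.2 in Het, and the list median was -0.38. Of 20 ATF4 and amino acid stress genes 25% were called, beside 8.25% of all genes tested. TRIB3 (9.53 FPKM in KO, 0.804 in Het) and CEBPB (5.26 and 0.567) rose while STC2, VLDLR and PHGDH fell. Both TRIB3 and CEBPB reached 1 FPKM in KO alone, so they could only have been higher. Of 20 glycolysis and hypoxia genes, 4 rose and 2 fell, 30% beside 8.25% of all genes tested. BHLHE40 had 5.93 FPKM in KO and 0.602 in Het, so it reached 1 FPKM in KO alone. The glucose carrier SLC2A3 fell to 167 against 514 and TPI1 to 692 against 1356. Of 19 imprinted genes IGF2 and PEG3 rose, IGF2 to 5.04 FPKM in KO against 1.33 in Het, and DLK1 fell to 7.53 against 24.1. The call of PEG3 (log2 change 0.95) was lost with the scaled SE when centred (0.89) or within GC bins (0.85).

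At day 3 the same 2 lines differed in fewer genes. Of 13557 genes tested 391 were called, 2.88%. In KO cells 316 rose and 75 fell, 2.33% and 0.553%. Of the genes that rose at day 5, 104 had also risen at day 3, which is 13.0% of the day 5 list and 32.9% of the day 3 list. Of those that fell, 38 were shared, 10.6% of the day 5 list and 50.7% of the day 3 list. SFRP4 was lower in KO at day 3 too, with 0.116 FPKM in KO cells and 4.19 in Het cells. SOX10 had 1.27 and 0.773 FPKM in KO and Het at day 3, and SOX1 2.52 and 5.63.

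The KO to Het change was tested for a difference between the days, as the day 5 log2 change minus that of day 3 divided by its SE, read as a 2-sided normal p that was adjusted by Benjamini-Hochberg over 13663 genes. The difference passed an adjusted p of 0.05 in 24 genes, 0.176%, of which 17 had the greater value at day 5 and 7 the smaller. With the SE scaled to the deposited p-values it passed in 203, 1.49%, and among genes with at least 1 FPKM in all 4 groups in 6. For MYC the difference was 5.58 (SE 0.72), since at day 3 it had 16.1 FPKM in KO cells and 8.12 in Het cells. GABBR2, a GABA receptor subunit, had 4.30 FPKM in KO and 0.0897 in Het at day 5, and 0.561 and 0.751 at day 3. CA12, RHOJ, IGFBP3, SPARCL1 and the neurofilament NEFH were also among the 17. NTRK2 had the most negative difference, -4.87 (SE 0.81). Its level was 0.712 FPKM in KO and 14.3 in Het at day 5, and 6.54 and 4.47 at day 3. CYP26A1 had a difference of -2.77 (SE 0.69), with 23.7 FPKM in KO and 42.0 in Het at day 3. ADCY2, PRMT8, TSPAN11, ERVMER34-1 and a small nucleolar RNA made up the rest.

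**Figure D4:**
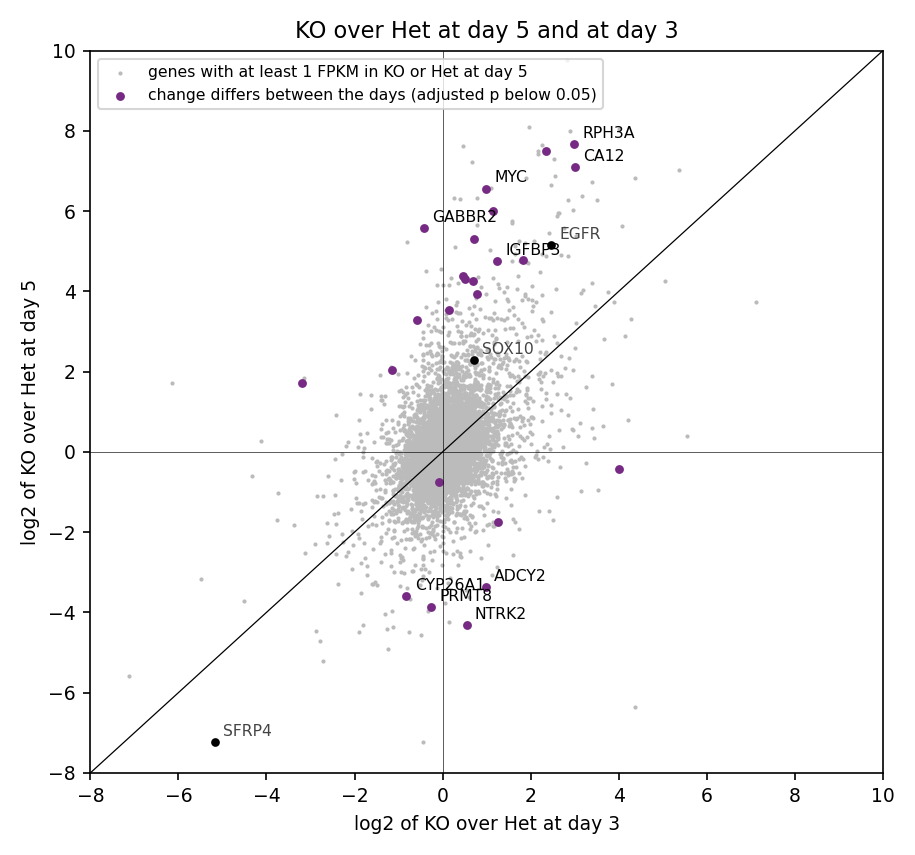
Log2 change of KO over Het at day 5 (vertical axis) and at day 3 (horizontal axis), with 1 grey point per gene that has a level above 0 in all 4 groups, the line of equal change, and purple points for genes whose change differs between the days. MYC and GABBR2 stand high above the line, NTRK2 and ADCY2 far below it, while SFRP4 is low at both days.

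Changes were not spread evenly over chromosomes. On the long arm of chromosome 1, taken as genes beyond the centromere, 639 expressed genes had a median log2 change of 0.47 and 81.5% lay above 0, with 84 higher and 2 lower calls. That median was 0.58 at day 3. Its short arm had a median of -0.14. The 6 windows of 20 Mb along the long arm had medians between 0.40 and 0.72 at day 5, and those of the short arm all lay below 0. Chromosome 12 had a median of -0.18 with 63.8% of genes below 0 and 23 higher and 49 lower calls, while its day 3 median was 0.02. Chromosomes 19 and 11 had medians of -0.22 and -0.15. Without chromosome 12 and the long arm of chromosome 1, 686 genes rose and 308 fell. Across genes, the rank correlation of the change with GC content was -0.09 at day 5 and 0.06 at day 3, given as a description over genes that share libraries.

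**Figure D5:**
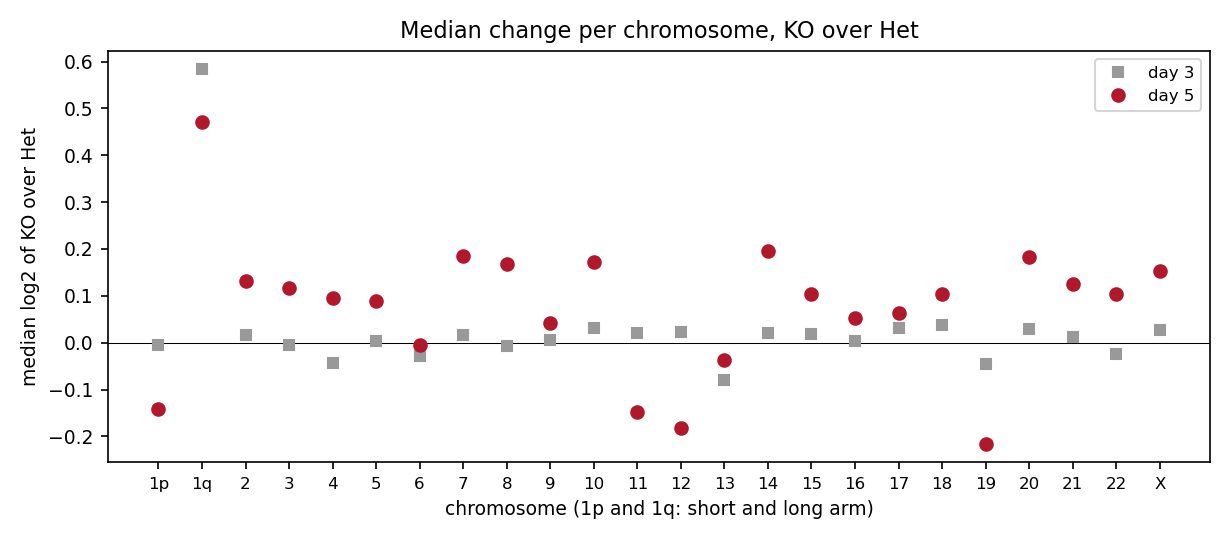
Median log2 change of KO over Het per chromosome at day 5 (red circles) and day 3 (grey squares), with the arms of chromosome 1 apart and chromosome Y not shown. The long arm of chromosome 1 stands at 0.47 at day 5 and 0.58 at day 3, apart from all others, and chromosomes 19, 12 and 11 are the lowest at day 5.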

How the data were processed

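Poly-adenylated RNA was sequenced from 16 samples in 8 groups. Per the submitters' processing notes, reads were handled with TopHat2 2.1.1 and hg19, and Cuffdiff 2.2.1 was used. The annotation version was not given in the sources used here. FPKM per gene and group make up the authors' deposited table, with a log2 fold change, a test score, a p-value and a q-value. The group the table calls HOMO was read as KO. The authors' q-values match Benjamini-Hochberg values over 222234 tests of 15 comparisons. Which wild-type libraries entered the wild-type group is not stated.

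From these, log2 changes of KO over Het were computed from FPKM without a pseudocount, and each SE as the log2 change over the deposited score. Implied variances added up over groups with a median relative error of 4.9e-06. Genes with a q-value below 0.05 in the deposited table and at least 1 FPKM in KO or Het were called. No count test was possible because the table holds no counts. Python 3.11.15 and scipy 1.17.1 were used.

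Genes, gene lists and alternatives were chosen with earlier results of these data known. The genes named are FOXB1, the 12 largest called rises and falls with levels above 0 in both groups, up to 4 called members of each list, the 6 largest called gains and losses in FPKM, the 6 largest differences between days in each direction, and the cell type markers. All others were chosen after their values were seen. Genes of chromosome Y are not printed. Some genes that this rule names are not reported here.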

Additional observations from a re-analysis of the deposited data

Results flagged for a closer look

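The KO to Het change differed between day 5 and day 3 in 24 genes by the test of that difference. The 6 greatest and the 6 most negative are given, and each value is the day 5 log2 change minus the day 3 log2 change. The 6 greatest were GABBR2 at 6.01, MYC at 5.58, SPARCL1 at 5.16, RWDD2B at 4.93, DNAH9 at 4.87 and RPH3A at 4.67. SPARCL1 and RPH3A were higher in KO cells at both days, with the larger change at day 5. RWDD2B had 5.33 FPKM in KO cells and 1.61 in Het cells at day 5, and 0.213 and 1.95 at day 3, so its order turned round.

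The 6 most negative were NTRK2 at -4.87, ERVMER34-1 at -4.43, ADCY2 at -4.36, PRMT8 at -3.60, TSPAN11 at -3.01 and CYP26A1 at -2.77. ADCY2, an adenylate cyclase, had 0.810 FPKM in KO cells and 8.40 in Het cells at day 5, and 1.20 and 0.607 at day 3. ERVMER34-1 had 1.44 FPKM in KO and 1.94 in Het at day 5, against 4.38 and 0.274 at day 3. CYP26A1 was lower in KO cells at both days. No cause of these differences was tested.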

How the results depend on the processing

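With q below 0.01, 667 genes were called, 494 higher and 173 lower in KO. A normal p of the deposited score left 425, 319 higher and 106 lower. Higher calls came to 507 with at least 1 FPKM in both groups and 496 with at least 5 FPKM in a group. With the SE scaled to the deposited p-values, an alternative chosen after seeing the data, 799 were higher and 396 lower. With that SE, centring on the median gave 739 higher and 452 lower, and GC bins 714 and 439. The difference between days was called in 203 genes with scaled SE and 6 with at least 1 FPKM in all 4 groups. The other counts, and both chromosome medians, stayed within 1.5 times or within 1 SE. Across 6 alternatives the number of lists with a median above 0 stayed within 1.5 times of 21. The medians of retinoic acid, pluripotency, epithelial junction, glycolysis and housekeeping lists changed sign in 1 or 2 settings, and the HOX median was 1.26 and 5.76 with pseudocounts of 1 and 0.01 FPKM. Over members with at least 1 FPKM, medians of central neural progenitors were -1.74 in place of -0.28, of melanocyte and Schwann cell genes 1.15 (0.20), of primitive streak genes 3.00 (1.02), of placode genes 1.28 (0.57) and of cancer-testis genes 5.45 (0.37). Within GC bins, which hold such members alone, the first 3 were -1.61, 1.07 and 2.93, and with 0.01 FPKM the primitive streak median was 2.55. No cause was tested. Among named genes 0 reversed. The scaled SE alone ended the calls of WNT1 and BAMBI and made FOXB1 a call (log2 change -1.26). With that SE, centring ended the calls of BAMBI, BMP4, STRA6 and PEG3, while WNT1 stayed a call. GC bins with that SE ended those of WNT1, BAMBI, BMP4, L1TD1, SEMA3E, ISG15, HPRT1 and PEG3. Features of small RNA, histones and haplotypes, and ribosomal proteins, were left out in alternatives chosen after seeing the data, with 783 and 797 higher calls.

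Leaving out each replicate was not run, because the table has 1 value per group. No paired analysis was possible because the columns carry no replicates. Depth is unknown, and changes below 0.81 in log2 size were never called.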
